A study of Homo sapiens with 18 samples.

Results

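The genes described here are 38 genes of glycolysis and of the hypoxia response, chosen by name as the rows of the expression table whose Ensembl ID maps to a list of symbols, out of 60658 IDs in all. They were followed in 2 human cell lines. B11 is a single subclone of the acute myeloid leukaemia line THP1, labelled as heterozygous for NRAS-G12V. Its parent cells had first received a lentiviral, doxycycline-inducible and CRISPR-resistant NRAS carrying G12V with GFP, were selected for GFP under doxycycline, and then received Cas9, a puromycin resistance gene and a pair of guides flanking the start codon of the resident NRAS gene. THP1 itself, labelled as heterozygous for NRAS-G12D, has no added vector named in its labels and served as the comparison line. Each line was kept for 5 days without doxycycline, with 1 ug/ml or with 10 ug/ml, in 3 plates (libraries A, B and C) per group, 18 libraries in all. In B11 doxycycline is the inducer of the added NRAS, so that 0 ug/ml is the state without induction, while in THP1 the same doses show what doxycycline does without that vector. The 9 plates of a line came from 1 culture, so a p-value here reflects plate-to-plate spread alone, and results in B11 are those of 1 clone.

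Glycolysis splits glucose into pyruvate in a chain of enzymatic steps, several of which are served by isozymes from different genes. Pyruvate is either reduced to lactate by lactate dehydrogenase and exported by monocarboxylate transporters, or oxidised in mitochondria through pyruvate dehydrogenase, which the PDK kinases inhibit. The hypoxia-inducible factor HIF-1, whose alpha subunit is hydroxylated by the EGLN oxygen sensors and then degraded, binds short DNA elements near many of these genes and raises their transcription when oxygen is low. Fast-growing leukaemia cells are known to use glycolysis also in the presence of oxygen.

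An estimated 12.2 to 17.6 M fragments lay behind each library. All 7 monocytic leukaemia markers were detected in every group, and their summed level was 3036 to 3928 FPKM in B11 at 0 ug/ml, 982 to 1070 FPKM at 1 ug/ml and 802 to 899 FPKM at 10 ug/ml, against 1086 to 1452 FPKM over the THP1 libraries. FPKM counts sequenced fragments relative to transcript length and library depth. The 10 markers of other lineages summed to 3.30 to 13.2 FPKM with 4 to 6 of them at 0 in a group. LYZ, which encodes lysozyme, made up most of the sum in B11 at 0 ug/ml, with 2781 ± 454 FPKM (SD, n = 3). At 10 against 0 ug/ml in B11, 4 of the 7 markers were lower (LYZ, CSF1R, CD33 and PTPRC) and 1 was higher (ITGAM). At 1 against 0 ug/ml, 4 were lower (LYZ, CSF1R, CD33 and SPI1) and 2 higher (ITGAM and CD14). These calls (adjusted p under 0.05 in limma) took in 71.4% of the markers at 10 ug/ml and 85.7% at 1 ug/ml. Of all genes tested, 42.8% and 37.1% were called in the same 2 comparisons. The part of these markers in the results below was not tested. NRAS, whose row may hold reads of both the resident gene and the inducible copy, was at 20.9 FPKM in B11 at 0 ug/ml, 23.8 at 1 ug/ml and 28.0 at 10 ug/ml, and at 23.3, 23.4 and 24.2 FPKM at the same doses in THP1.

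Of the 38 members, 36 reached 1 FPKM in at least 3 libraries and were tested with limma on log2(FPKM + 1) in 1 fit over 17555 genes. CA9, the carbonic anhydrase of hypoxic tumour cells, was listed at 0 in all 18 libraries. ADM, which encodes the vasodilator peptide adrenomedullin, was listed at 0 in all 3 B11 libraries at 0 ug/ml and did not exceed 1.04 FPKM in any library. Reads were pooled over the cells of a plate, so fewer cells of a type and less RNA per cell cannot be told apart.

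Library C of B11 at 10 ug/ml was the lowest of its group in 28 of the 36 members (77.8%), beside 34.3% of the 17555 genes. Library B of that group was the highest in 27 members, beside 33.2% of genes. Other libraries leaned too. Library C of THP1 at 10 ug/ml was the lowest of its group in 24 members (66.7%), beside 36.9% of genes. Library A of THP1 and library B of B11 at 0 ug/ml were the lowest in 52.8% and 50% of members, beside 36.6% and 34.3% of genes. The gap of library C of B11 at 10 ug/ml was wide for some members. ALDOC, for example, stood at 136 and 149 FPKM in libraries A and B and at 29.2 FPKM in library C. Where leaving this library out changes the call of a member described below, or moves its value widely, the value without it is given beside it. Counts of members called with libraries left out are given without the share of all genes called in the same fit.

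**Figure D1:**
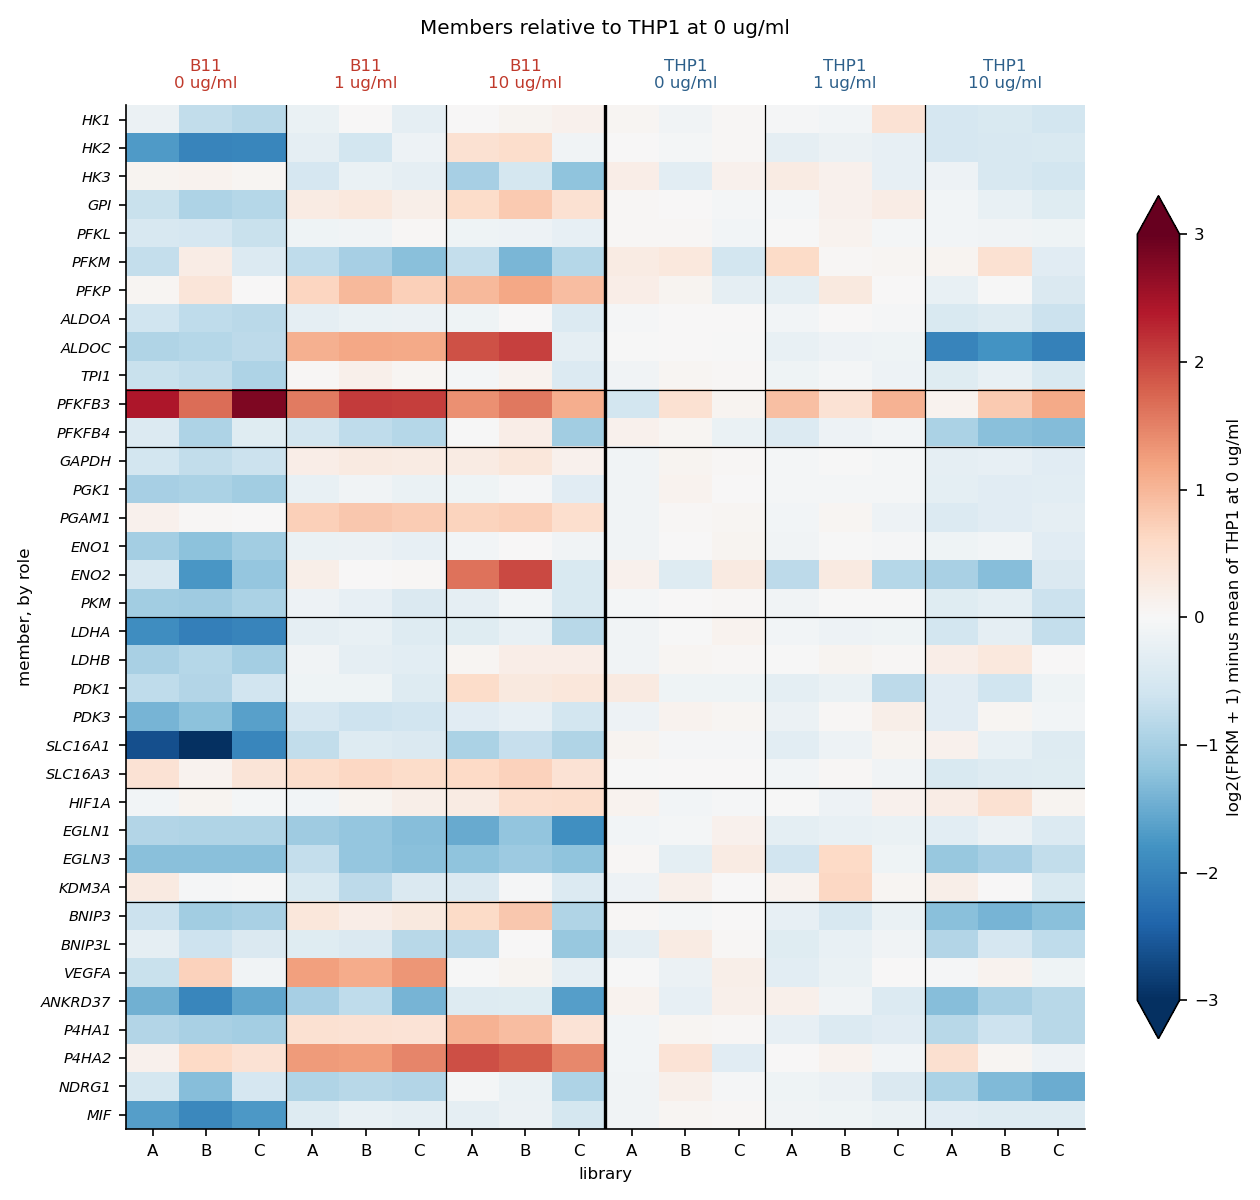
Level of the 36 members tested in each of the 18 libraries, as log2(FPKM + 1) minus the mean of THP1 at 0 ug/ml (colour, in log2 units), grouped by role, with the B11 libraries to the left. Most members are blue in B11 at 0 ug/ml and near the THP1 level at 1 and 10 ug/ml, and library C of B11 at 10 ug/ml is bluer than A and B for ALDOC, ENO2, BNIP3 and ANKRD37.

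In B11 at 10 ug/ml, 26 of the 36 members were higher and 3 lower than at 0 ug/ml (adjusted p under 0.05), a called share of 80.6% beside 42.8% of all genes tested (21.6% higher and 21.3% lower). The median change of the members was 0.79 on the log2 scale, beside -0.02 over all genes. At 1 ug/ml, 24 members were higher and 1 lower than at 0 ug/ml, 69.4% beside 37.1% of all genes, with a median of 0.71. At 10 ug/ml against 1 ug/ml, 5 were higher (HK2, GPI, LDHB, PDK1 and HIF1A) and 2 lower (HK3 and VEGFA), 19.4% beside 12.8% of all genes, with a median of 0.03. The calls of HK2, GPI, PDK1, HIF1A and HK3 were each lost without any 1 of at least 3 libraries. Without library C at 10 ug/ml, 8 were higher and 1 lower, with PFKFB4, ALDOC, ENO2, P4HA1 and NDRG1 gained and HK3, PDK1 and HIF1A lost. Without both B and C at 1 ug/ml no member was called.

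The promoters of 6 members that were higher in B11 are shown because they hold the short elements to which HIF-1 binds, and not all members do. Each run is the 250 bases before the start of the gene in the RefSeq table (GRCh38.p14), written along the gene's strand, with every ACGTG and GCGTG on either strand in capitals (CACGT and CACGC are the same letters read on the other strand). The 6 were chosen after their values and their motifs were seen, so that they are no sample of the members. ALDOC lies at chr17:28576896-28577145 (minus strand), BNIP3 at chr10:131981924-131982173 (minus strand), ANKRD37 at chr4:185396591-185396840 (plus strand), LDHA at chr11:18394313-18394562 (plus strand), P4HA1 at chr10:73096867-73097116 (minus strand) and HK2 at chr2:74833877-74834126 (plus strand).
ALDOC: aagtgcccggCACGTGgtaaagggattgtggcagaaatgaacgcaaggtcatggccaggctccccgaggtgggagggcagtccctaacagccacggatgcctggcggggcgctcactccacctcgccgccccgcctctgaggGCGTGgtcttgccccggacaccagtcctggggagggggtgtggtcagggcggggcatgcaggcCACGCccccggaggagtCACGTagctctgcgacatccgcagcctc
BNIP3: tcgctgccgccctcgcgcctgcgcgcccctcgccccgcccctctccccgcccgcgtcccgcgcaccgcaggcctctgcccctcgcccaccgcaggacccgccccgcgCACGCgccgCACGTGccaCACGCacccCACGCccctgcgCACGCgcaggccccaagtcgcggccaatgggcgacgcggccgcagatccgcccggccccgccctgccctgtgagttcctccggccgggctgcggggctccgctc
ANKRD37: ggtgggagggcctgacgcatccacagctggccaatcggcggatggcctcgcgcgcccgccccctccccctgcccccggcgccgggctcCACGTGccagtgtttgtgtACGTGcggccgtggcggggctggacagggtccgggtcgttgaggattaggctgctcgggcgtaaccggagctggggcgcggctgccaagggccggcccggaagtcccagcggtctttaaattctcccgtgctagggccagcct
LDHA: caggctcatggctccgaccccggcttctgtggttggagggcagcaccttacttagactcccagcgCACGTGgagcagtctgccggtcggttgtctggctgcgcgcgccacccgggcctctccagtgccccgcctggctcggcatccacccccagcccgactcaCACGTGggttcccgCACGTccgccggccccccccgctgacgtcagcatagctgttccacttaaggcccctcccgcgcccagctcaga
P4HA1: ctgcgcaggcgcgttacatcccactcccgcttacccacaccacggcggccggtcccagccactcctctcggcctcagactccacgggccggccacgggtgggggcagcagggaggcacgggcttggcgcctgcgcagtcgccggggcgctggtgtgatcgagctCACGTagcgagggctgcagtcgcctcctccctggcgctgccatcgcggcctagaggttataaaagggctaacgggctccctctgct
HK2: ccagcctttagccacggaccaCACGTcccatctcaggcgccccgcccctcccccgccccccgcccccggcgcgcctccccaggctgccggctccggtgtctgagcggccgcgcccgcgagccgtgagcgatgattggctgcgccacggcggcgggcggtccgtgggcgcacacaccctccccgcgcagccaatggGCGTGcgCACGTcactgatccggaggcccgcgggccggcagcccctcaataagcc
ACGTG was found 5 times before LDHA, 3 times each before ALDOC and ANKRD37, 2 times each before BNIP3 and HK2 and 1 time before P4HA1. CACGTG, which reads the same on both strands, was counted on each strand. GCGTG was found 4 times before BNIP3, 2 times before ALDOC and 1 time before HK2. The table held promoters of 34 of the members, and ACGTG was in 14 of them (41.2%), against 18.5% of all 35116 promoters in the table. GCGTG was in 12 of the 34 (35.3%), against 32.2% of all promoters. Each member was counted with 1 promoter, while all promoters in the table were counted whether or not they belonged to the same gene. The shares were not matched for base content or expression, and their difference was not tested. Of the 13 members with a promoter in the table that rose by at least 1 on the log2 scale in B11 at 10 against 0 ug/ml, a threshold set after seeing the data, 8 held ACGTG, 5 held GCGTG and 4 (MIF, P4HA2, PDK1 and LDHB) held neither. Of the other 21 members, 6 held ACGTG, 7 held GCGTG and 9 held neither. These others include CA9 and ADM, which were not tested, and members called higher by less than 1, such as ANKRD37. A match says only that these letters are in the window, and no match only that they are not.

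Of the 10 genes of upper glycolysis, 8 were higher and 1 lower in B11 at 10 ug/ml than at 0 ug/ml. That is a called share of 90%, beside 42.8% of all genes. HK2, the inducible hexokinase that traps glucose as glucose phosphate, stood at 1.99, 1.47 and 1.47 FPKM at 0 ug/ml, 7.05, 5.63 and 7.71 FPKM at 1 ug/ml and 12.2, 12.9 and 7.98 FPKM at 10 ug/ml. No library at either dose overlapped those without doxycycline. HK2 changed by 2.16 (SE 0.16, adjusted p = 3.55e-08) at 10 ug/ml and by 1.56 (SE 0.16, adjusted p = 1.63e-06) at 1 ug/ml on the log2(FPKM + 1) scale, which understates the change of a gene this low. HK3, a hexokinase of myeloid cells and the most abundant of the 3 in FPKM, went the other way. HK3 was at 56.0, 56.6 and 55.5 FPKM at 0 ug/ml, 37.0, 46.1 and 43.9 FPKM at 1 ug/ml and 26.0, 36.3 and 22.3 FPKM at 10 ug/ml, a change of -0.996 (SE 0.18, adjusted p = 0.00042) for 10 over 0 ug/ml. HK1, the hexokinase of most tissues, changed by 0.67 (SE 0.16, adjusted p = 0.00405).

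These opposite changes altered the makeup of the hexokinases more than their sum. The summed level of the 3 was 67.3 ± 3.11 FPKM at 0 ug/ml, 62.2 ± 5.05 at 1 ug/ml and 54.6 ± 9.42 at 10 ug/ml (SD, n = 3 each). The share of HK2 in it was 2.44% ± 0.331, 11% ± 2.21 and 20.1% ± 2.86 at the 3 doses in B11. In THP1 it was 11.4% ± 1.41, 9.28% ± 0.809 and 10.7% ± 1.41. The share of HK3 in B11 was 83.4% ± 3.65, 67.9% ± 2.34 and 51.1% ± 4.23. In B11 the libraries of the 3 doses did not overlap in either share. In THP1 the HK2 shares at 10 ug/ml overlapped those at both other doses.

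GPI, which converts glucose phosphate to fructose phosphate, was at 112, 94.5 and 99.0 FPKM at 0 ug/ml, 213, 221 and 202 FPKM at 1 ug/ml and 264, 307 and 245 FPKM at 10 ug/ml, with the 3 doses apart. It changed by 1.41 (SE 0.10, adjusted p = 2.03e-08) for 10 over 0 ug/ml. Of the phosphofructokinases, which commit the sugar to glycolysis, the platelet type PFKP changed by 0.88 (SE 0.16, adjusted p = 0.000432) and the liver type PFKL by 0.37 (SE 0.07, adjusted p = 0.000353). The muscle type PFKM, at 4.87 ± 2.03 FPKM without doxycycline, was 2.60 ± 0.816 FPKM at 10 ug/ml and did not pass (-0.68, adjusted p = 0.0856), but passed without library A at 0 ug/ml (-0.88, adjusted p = 0.0455). ALDOA, the main aldolase, which splits fructose bisphosphate, changed by 0.55 (SE 0.09, adjusted p = 0.000167). TPI1, which interconverts the triose phosphates, changed by 0.66 (SE 0.11, adjusted p = 0.000165).

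ALDOC, the aldolase best known from brain, had 18.3, 19.2 and 20.1 FPKM in B11 at 0 ug/ml, 74.7, 79.8 and 78.6 FPKM at 1 ug/ml and 136, 149 and 29.2 FPKM at 10 ug/ml. Every library with doxycycline was above every library without it, and library C at 10 ug/ml lay below the 1 ug/ml libraries. The change at 10 against 0 ug/ml was 2.08 (SE 0.40, adjusted p = 0.00063) and was 2.83 (adjusted p = 2.04e-11) without library C. Against 1 ug/ml the change was 0.12 (adjusted p = 0.901), but 0.86 (adjusted p = 2.56e-05) without library C. A gene on the opposite strand that overlaps ALDOC reached 68.3 FPKM, and the sources used here do not give whether strand was kept.

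All 6 genes of lower glycolysis were higher in B11 at 10 ug/ml than at 0 ug/ml, beside 21.6% of all genes. GAPDH, which oxidises glyceraldehyde phosphate and makes NADH, was at 1385, 1224 and 1302 FPKM at 0 ug/ml, 2334, 2426 and 2398 FPKM at 1 ug/ml and 2416, 2553 and 2207 FPKM at 10 ug/ml, a change of 0.87 (SE 0.06, adjusted p = 2.21e-08) for 10 over 0 ug/ml. The kinase PGK1, which forms the first ATP of the pathway, changed by 0.83 (SE 0.07, adjusted p = 1.33e-07) and the mutase PGAM1 by 0.58 (SE 0.08, adjusted p = 2.7e-05). ENO1, the common enolase, had 609 ± 46.1 FPKM at 0 ug/ml, 1126 ± 31.9 at 1 ug/ml and 1258 ± 58.9 at 10 ug/ml (SD, n = 3 each) and changed by 1.05 (SE 0.07, adjusted p = 2.59e-08). PKM, the pyruvate kinase of most tissues, changed by 0.76 (SE 0.10, adjusted p = 1.77e-05). None of the 5 passed the test between the doses.

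ENO2, an enolase known from neurons, was far lower than ENO1 and differed most between plates. It had 2.79, 0.560 and 1.35 FPKM at 0 ug/ml, 4.92, 4.34 and 4.37 FPKM at 1 ug/ml and 15.4, 19.9 and 2.86 FPKM at 10 ug/ml. Library C at 10 ug/ml was thus level with library A at 0 ug/ml. The change at 10 against 0 ug/ml was 2.19 (SE 0.52, adjusted p = 0.00322), and 2.95 (adjusted p = 4.34e-05) without library C. Against 1 ug/ml ENO2 was not called (0.99, adjusted p = 0.255), but was without library C (1.75, adjusted p = 0.0144). GAPDH, PGAM1, LDHA, PKM, TPI1, ENO1 and BNIP3 are among 15 members with named pseudogenes, between which the submitters' counting may have split reads. The 39 named pseudogenes of BNIP3 summed to at most 10.6 FPKM in a library, beside 13.9 to 66.9 FPKM for BNIP3 itself. Genes on the opposite strand overlap GAPDH (up to 125 FPKM), SLC16A3 (CSNK1D, up to 249.7 FPKM) and PFKM (SENP1, up to 10.9 FPKM), among others, and their reads may not be separable. The same holds for HK2 (AC019069.1, up to 4.82 FPKM) and SLC16A1 (SLC16A1-AS1, up to 6.18 FPKM). HK2 and SLC16A1 had means of 1.64 and 6.93 FPKM in B11 at 0 ug/ml. CA9, listed at 0, lies opposite ARHGEF39 (up to 78.7 FPKM).

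**Figure D2:**
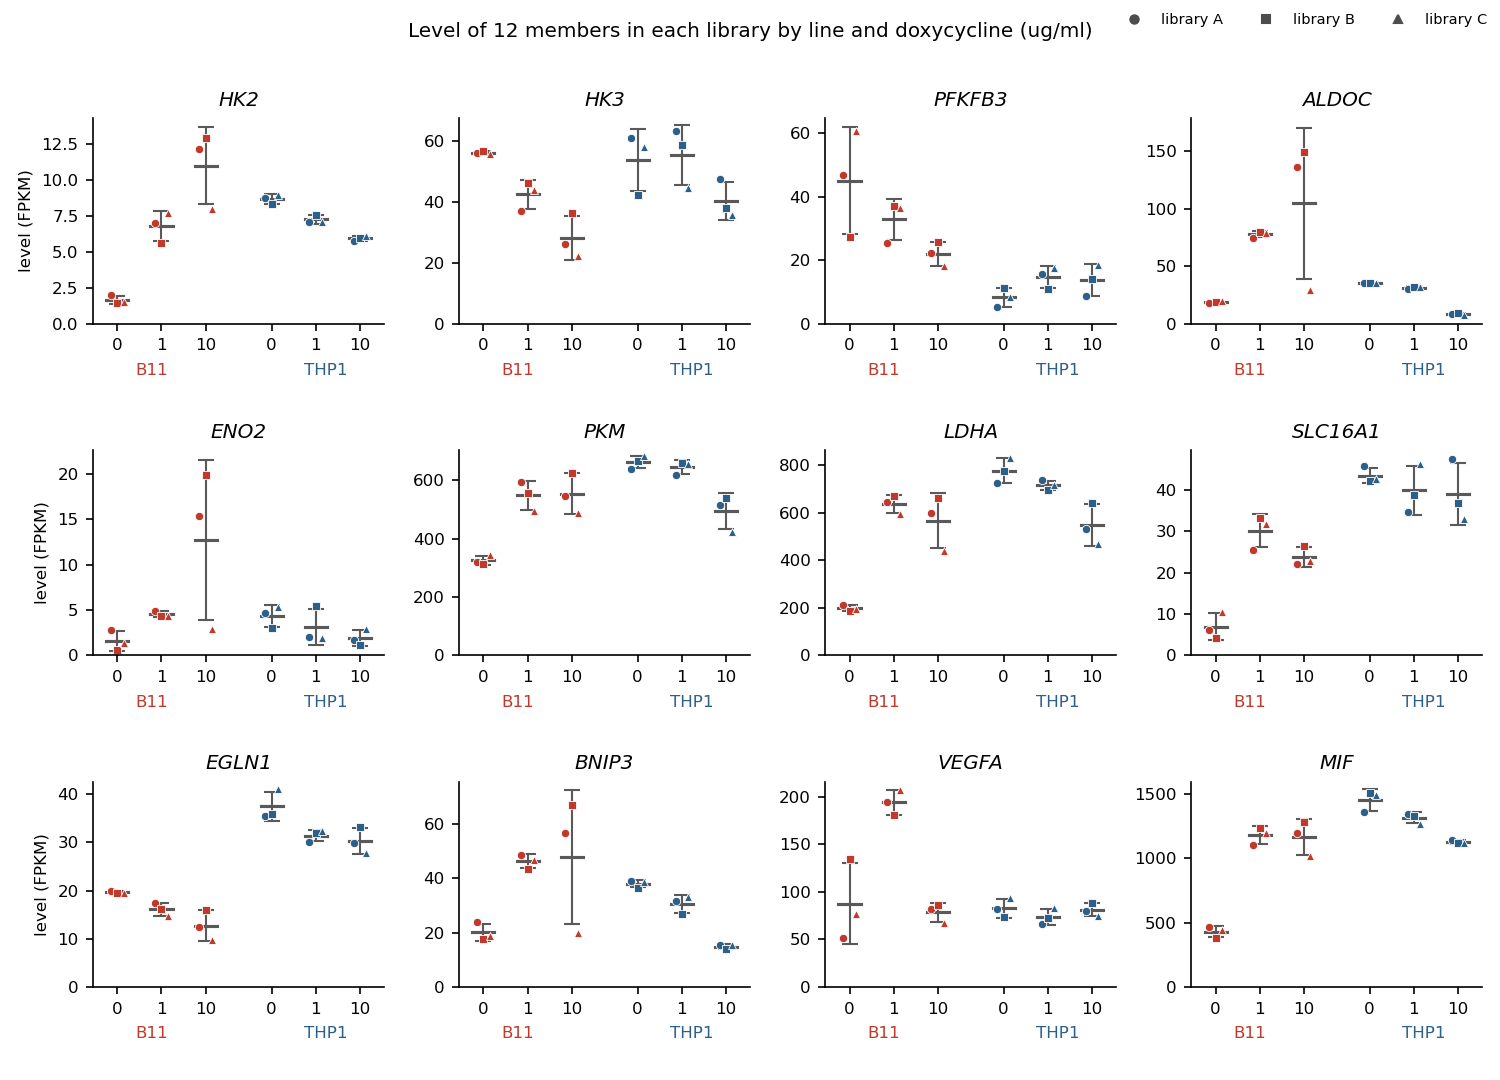
Level in FPKM (linear axis from 0) of 12 members in each library at 0, 1 and 10 ug/ml doxycycline, B11 in red at the left and THP1 in blue at the right of each panel, with bars for the mean and SD of 3 libraries and a symbol for each library letter. HK2, LDHA, SLC16A1 and MIF in B11 at 0 ug/ml lie below all other groups, and the triangle of library C at 10 ug/ml lies apart for ALDOC, ENO2 and BNIP3.

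All 6 genes of pyruvate and lactate were called higher in B11 at both doses than at 0 ug/ml. Of all genes, 21.6% were called higher at 10 ug/ml and 19.8% at 1 ug/ml. However, 2 of the calls at 1 ug/ml, those of PDK1 and SLC16A3, depended on single libraries. LDHA, the lactate dehydrogenase subunit that favours lactate formation, had 212, 186 and 195 FPKM at 0 ug/ml, 644, 670 and 593 FPKM at 1 ug/ml and 600, 660 and 439 FPKM at 10 ug/ml. It changed by 1.68 (SE 0.13, adjusted p = 9.95e-08) at 1 ug/ml and by 1.49 (SE 0.13, adjusted p = 2.77e-07) at 10 ug/ml. LDHB, the subunit that favours pyruvate, had 511 ± 30.6, 838 ± 62.5 and 1099 ± 60.2 FPKM at the 3 doses (SD, n = 3 each) and was called higher at 10 than at 1 ug/ml (0.39, SE 0.08, adjusted p = 0.00403), but not without both B and C at 1 ug/ml (0.27, adjusted p = 0.214). The LDHA share of the summed lactate dehydrogenases was 28.0% ± 2.22, 43.2% ± 1.79 and 33.8% ± 5.18 in B11 at 0, 1 and 10 ug/ml. At 10 ug/ml the shares in libraries A, B and C were 36.8%, 36.8% and 27.9%, and library C was thus within the range at 0 ug/ml.

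SLC16A1, the monocarboxylate transporter MCT1, had 6.18, 4.18 and 10.4 FPKM in B11 at 0 ug/ml, 25.5, 33.2 and 31.7 FPKM at 1 ug/ml and 22.1, 26.4 and 22.8 FPKM at 10 ug/ml. The doses with doxycycline did not overlap the one without. SLC16A1 changed by 1.72 (SE 0.22, adjusted p = 1.62e-05) for 10 over 0 ug/ml and by 2.04 (SE 0.22, adjusted p = 3.61e-06) for 1 over 0 ug/ml. SLC16A3, the lactate exporter MCT4, was the more abundant transporter in FPKM, with 273 ± 32.8 FPKM at 0 ug/ml, 327 ± 10.8 at 1 ug/ml and 329 ± 30.5 at 10 ug/ml (SD, n = 3 each). Its change of 0.27 (SE 0.08, adjusted p = 0.0139) for 10 over 0 ug/ml lost its call without library B of either group (adjusted p = 0.0715 and 0.0738). So did its change of 0.26 (SE 0.08, adjusted p = 0.0183) for 1 over 0 ug/ml (adjusted p = 0.0667 and 0.0909). The kinases PDK1 and PDK3, which restrain pyruvate dehydrogenase, changed by 1.13 (SE 0.17, adjusted p = 7.25e-05) and 1.04 (SE 0.15, adjusted p = 6.07e-05). For 1 over 0 ug/ml the change of PDK1 was 0.53 (SE 0.17, adjusted p = 0.0238), a call lost without library A or B of either group (adjusted p = 0.0598 to 0.0827). PDK1 was also called at 10 against 1 ug/ml (0.60, SE 0.17, adjusted p = 0.0309), and lost that call without any 1 of the 6 libraries of those doses (adjusted p = 0.053 to 0.118). PDK3 was low, at 1.20 ± 0.306 FPKM at 0 ug/ml.

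PFKFB3 and PFKFB4 make and break down a regulatory fructose bisphosphate that activates phosphofructokinase. PFKFB3 had 46.9, 27.4 and 60.8 FPKM in B11 at 0 ug/ml, 25.3, 37.0 and 36.3 FPKM at 1 ug/ml and 22.1, 25.8 and 18 FPKM at 10 ug/ml. It is 1 of the 3 members that were lower at 10 than at 0 ug/ml (-0.95, SE 0.32, adjusted p = 0.0287), and the call was lost without library A or C of either group (adjusted p = 0.0592 to 0.129). PFKFB4 had 8.98, 6.03 and 9.32 FPKM at 0 ug/ml, 8.04, 6.86 and 6.35 FPKM at 1 ug/ml and 12.2, 14.3 and 5.46 FPKM at 10 ug/ml. It did not pass at 10 against 0 ug/ml (0.28, adjusted p = 0.409), and passed without library C at 10 ug/ml (0.66, adjusted p = 0.0126).

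Of the 4 genes of oxygen sensing, 1 was higher and 1 lower in B11 at 10 ug/ml than at 0 ug/ml, a called share of 50% beside 42.8% of all genes. HIF1A, the oxygen-regulated subunit of HIF-1, had 38.1, 43.1 and 39.0 FPKM in B11 at 0 ug/ml, 38.5, 42.8 and 45.8 FPKM at 1 ug/ml and 48.6, 57.6 and 58.9 FPKM at 10 ug/ml, a change of 0.45 (SE 0.11, adjusted p = 0.00421) for 10 over 0 ug/ml. HIF1A protein is controlled mainly by its stability, which RNA does not show. EGLN1, the main HIF prolyl hydroxylase, was at 20.0, 19.5 and 19.4 FPKM at 0 ug/ml, 17.4, 16.2 and 14.7 FPKM at 1 ug/ml and 12.5, 16 and 9.68 FPKM at 10 ug/ml, with no overlap between 10 and 0 ug/ml (-0.61, SE 0.13, adjusted p = 0.00156). KDM3A, a histone demethylase that HIF-1 is known to induce, had 27.4 ± 3.38 FPKM at 0 ug/ml, 17.3 ± 2.48 at 1 ug/ml and 21.0 ± 3.70 at 10 ug/ml. It was lower at 1 than at 0 ug/ml (-0.63, SE 0.19, adjusted p = 0.0168), a call lost without library A at 0 ug/ml or library B at 1 ug/ml (adjusted p = 0.0692 and 0.0773), and was not called at 10 against 0 ug/ml (-0.37, adjusted p = 0.136). EGLN3, a hydroxylase that hypoxia itself induces, was listed at 0 in all B11 libraries at 0 ug/ml and did not exceed 0.457 FPKM in the others.

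Among the hypoxia-induced genes, 5 of the 8 tested were higher in B11 at 10 ug/ml than at 0 ug/ml and none was lower, 62.5% beside 42.8% of all genes. The calls of BNIP3 and ANKRD37 among the 5 depended on single libraries. P4HA1 and P4HA2, the catalytic subunits of collagen prolyl 4-hydroxylase, changed together. P4HA1 had 12.3, 11.3 and 10.9 FPKM at 0 ug/ml, 32.4, 31.7 and 31.2 FPKM at 1 ug/ml and 49.2, 44.6 and 31.3 FPKM at 10 ug/ml (1.75, SE 0.13, adjusted p = 4.26e-08, for 10 over 0 ug/ml). Against 1 ug/ml P4HA1 was not called (0.36, adjusted p = 0.0877), but was without library C at 10 ug/ml (0.55, adjusted p = 0.00283). P4HA2 changed by 1.35 (SE 0.20, adjusted p = 7.65e-05). MIF, a cytokine that macrophages and tumour cells secrete, had 464, 383 and 441 FPKM at 0 ug/ml, 1109, 1241 and 1201 FPKM at 1 ug/ml and 1201, 1286 and 1016 FPKM at 10 ug/ml, and its change of 1.44 (SE 0.08, adjusted p = 3.36e-09) had the smallest adjusted p of the members in this comparison.

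BNIP3, a mitophagy receptor, had 23.9, 17.8 and 18.8 FPKM at 0 ug/ml, 48.8, 43.6 and 47.0 FPKM at 1 ug/ml and 56.9, 66.9 and 19.9 FPKM at 10 ug/ml, with library C at the level without doxycycline. Its change of 1.05 (SE 0.30, adjusted p = 0.0101) for 10 over 0 ug/ml was 1.58 (adjusted p = 2.85e-07) without library C, and lost its call without library A or B at 10 ug/ml (adjusted p = 0.0521 and 0.0585). ANKRD37, a small ankyrin-repeat protein known as a HIF-1 target, had 2.42, 1.40 and 2.18 FPKM at 0 ug/ml, 3.71, 4.52 and 2.54 FPKM at 1 ug/ml and 6.14, 6.26 and 1.97 FPKM at 10 ug/ml. Its call at 10 against 0 ug/ml (0.85, SE 0.30, adjusted p = 0.0323) was lost without library B or C at 0 ug/ml or library A or B at 10 ug/ml (adjusted p = 0.0525 to 0.141), and the change was 1.28 (adjusted p = 0.000621) without library C at 10 ug/ml. ANKRD37 lies opposite UFSP2, which reached 28.8 FPKM, more than ANKRD37 itself. NDRG1, a stress-responsive gene of differentiation, had 96.5, 57.8 and 99.2 FPKM at 0 ug/ml, 74.5, 78.5 and 76.3 FPKM at 1 ug/ml and 134, 123 and 73.7 FPKM at 10 ug/ml. It did not pass at 10 against 0 ug/ml (0.37, adjusted p = 0.198) but did without library C (0.64, adjusted p = 0.0231). BNIP3L, the relative of BNIP3, was not called (-0.21, adjusted p = 0.496), but was without library B at 10 ug/ml (-0.54, adjusted p = 0.0307).

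VEGFA, the angiogenic growth factor, was the 1 hypoxia-induced member called lower at 10 than at 1 ug/ml. It had 51.0, 134 and 76.9 FPKM in B11 at 0 ug/ml, 195, 180 and 207 FPKM at 1 ug/ml and 81.8, 86.5 and 67.6 FPKM at 10 ug/ml. All 3 libraries at 1 ug/ml lay above those of both other doses. VEGFA was higher at 1 than at 0 ug/ml (1.25, SE 0.24, adjusted p = 0.000667), lower at 10 than at 1 ug/ml (-1.30, SE 0.24, adjusted p = 0.00222) and not called at 10 against 0 ug/ml (-0.05, adjusted p = 0.902). With both B and C of that dose left out, the difference was of the same size (-1.30) but not called (adjusted p = 0.0693). An antisense gene that overlaps VEGFA reached 426 FPKM, above the highest VEGFA level, and its reads may not be separable from those of VEGFA.

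**Figure D3:**
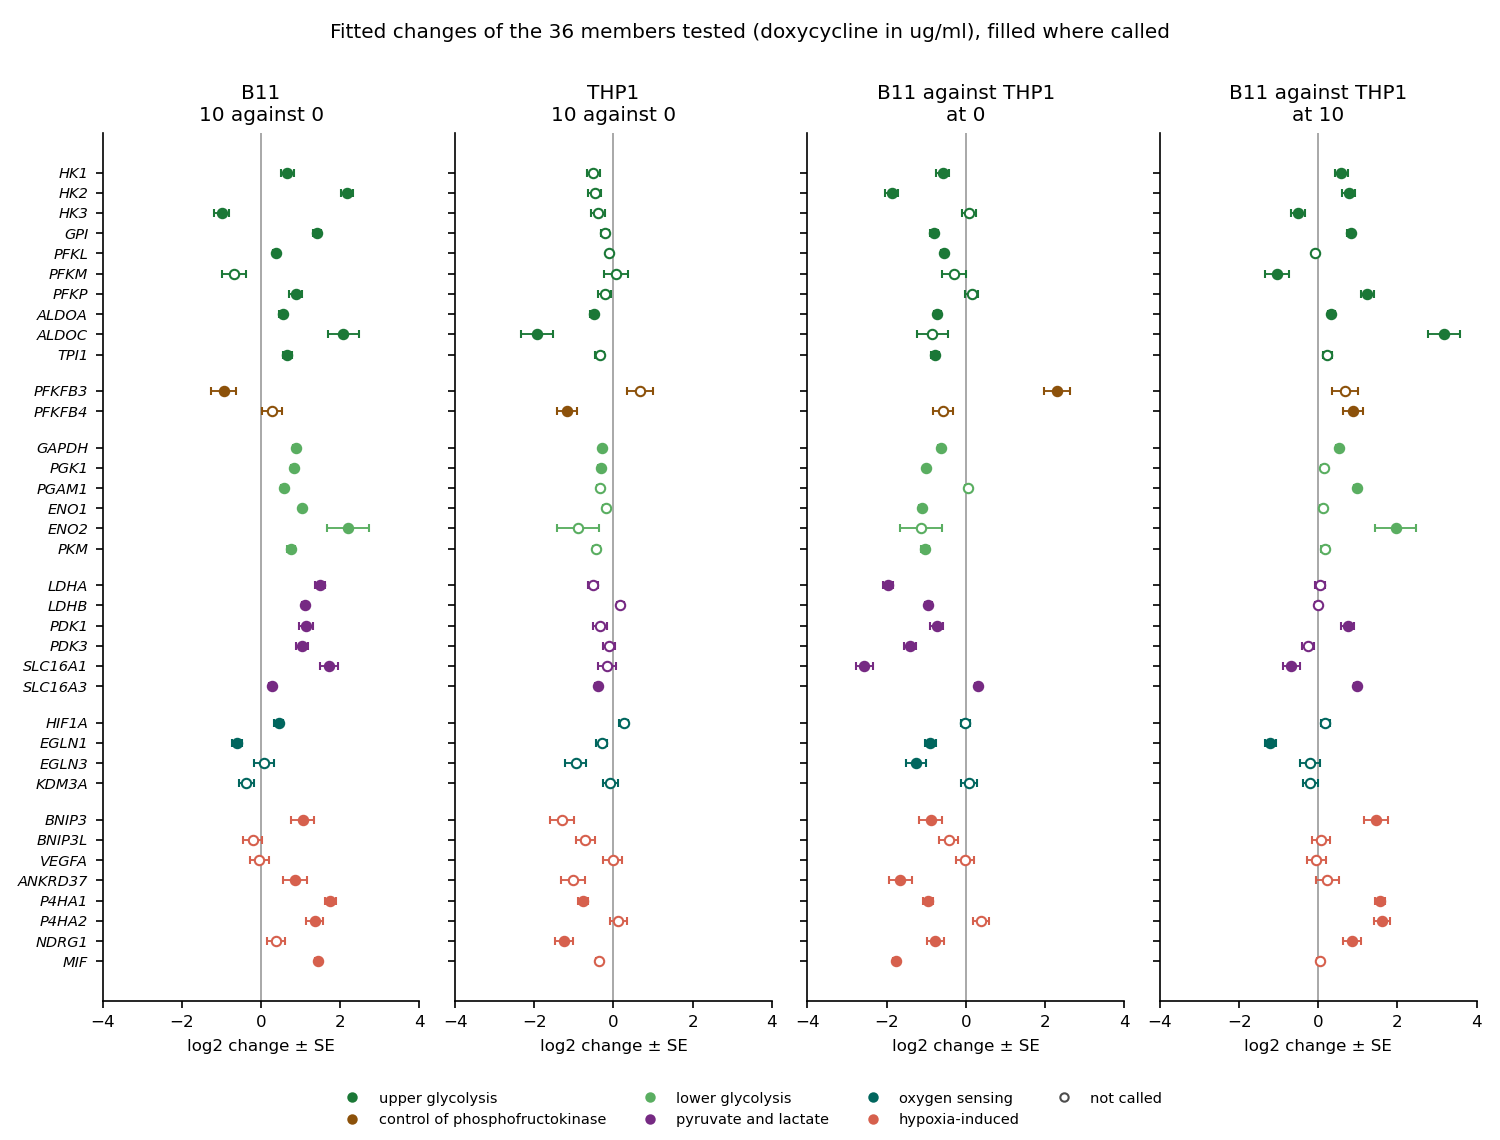
Fitted log2 change ± SE (horizontal axes, on the log2(FPKM + 1) scale) of the 36 members tested in 4 comparisons, with doses in ug/ml. Filled points were called at an adjusted p under 0.05 and colours give the role. Most points lie right of 0 for B11 at 10 against 0 ug/ml, left of 0 or near it for THP1, and left of 0 for B11 against THP1 at 0 ug/ml.

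In THP1 doxycycline moved few genes, and those members that changed were lower. At 10 against 0 ug/ml no member was higher and 8 were lower, 22.2% of the 36 beside 1.02% of all genes (162 of the 179 called genes were lower). The median change of the members was -0.35, beside 0.00 over all genes. The 8 were ALDOC, NDRG1, PFKFB4, P4HA1, ALDOA, SLC16A3, PGK1 and GAPDH. ALDOC had 8.16, 9.40 and 7.88 FPKM at 10 ug/ml, against 34.9, 35.7 and 35.2 FPKM at 0 ug/ml, and changed by -1.94 (SE 0.40, adjusted p = 0.0329). NDRG1 had 72.3, 55.5 and 49.5 FPKM at 10 ug/ml, against 130, 155 and 138 FPKM at 0 ug/ml (-1.25, SE 0.22, adjusted p = 0.0136). P4HA1 had 12.6, 14.7 and 12.5 FPKM at 10 ug/ml, against 21.8, 24.0 and 23.8 FPKM at 0 ug/ml (-0.77, SE 0.13, adjusted p = 0.0106). In each of these 3 the libraries of the 2 doses did not overlap, and NDRG1 at 10 ug/ml had a wide spread between plates (59.1 ± 11.8 FPKM, SD, n = 3).

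The other 5 changes in THP1 ranged from -1.17 for PFKFB4 to -0.28 for GAPDH. BNIP3 had 15.4, 13.9 and 15.4 FPKM at 10 ug/ml, against 38.9, 36.6 and 38.6 FPKM at 0 ug/ml, and its change of -1.30 had an adjusted p of 0.0528. That p rests on a spread shared by all 6 groups, in which library C of B11 at 10 ug/ml was far from its partners. Without that library BNIP3 passed (adjusted p = 5.83e-05) and 14 members were called lower in THP1. The share of all genes called in that fit is not given here, so the 14 cannot be set beside it. Without other single libraries the count was as low as 0, and each of the 8 calls was lost without at least 2 of the 18 libraries. P4HA1 lost its call without library B or C of THP1 at 0 ug/ml (adjusted p = 0.0508 to 0.0508), NDRG1 without library B or C of THP1 at 0 or 10 ug/ml (adjusted p = 0.0509 to 0.0697), and ALDOC without any 1 library of THP1 at 0 or 10 ug/ml or library C of B11 at 1 ug/ml (adjusted p = 0.0514 to 0.112). At 1 against 0 ug/ml no member was called by limma in THP1, beside 0.0114% of all genes, and 3 members had an unadjusted p under 0.05. In the same fit 25 of the 36 members had an unadjusted p under 0.05 at 10 against 0 ug/ml, and 20 at 10 against 1 ug/ml. The share of all genes under that unadjusted threshold was not counted, so these counts have no background. After adjustment only ALDOA was called lower at 10 against 1 ug/ml, 2.78% of members beside 0.296% of all genes (-0.46, SE 0.09, adjusted p = 0.0462). That call was lost in turn without 14 of the 18 libraries (adjusted p = 0.0534 to 0.157). Without library C of B11 at 10 ug/ml 6 members were called lower. They were ALDOA, ALDOC (-1.77, adjusted p = 2.85e-08), BNIP3 (-0.99, adjusted p = 0.00103), PFKFB4 (-0.95, adjusted p = 0.0272), NDRG1 (-1.01, adjusted p = 0.0296) and P4HA1 (-0.43, adjusted p = 0.0451). ALDOC had 8.16, 9.40 and 7.88 FPKM at 10 ug/ml, against 30.2, 31.7 and 32.1 FPKM at 1 ug/ml, with no overlap, and had an adjusted p of 0.0841 with library C.

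Without doxycycline the members were mostly lower in B11 than in THP1. Of the 36, 22 were lower and 2 higher, 66.7% beside 47.1% of all genes (23.6% lower and 23.5% higher), with a median difference of -0.77. SLC16A1 had 6.18, 4.18 and 10.4 FPKM in B11, against 45.6, 42.2 and 42.5 FPKM in THP1, the widest difference (-2.56, SE 0.22, adjusted p = 2.1e-07). LDHA had 212, 186 and 195 FPKM in B11, against 725, 776 and 831 FPKM in THP1 (-1.97, SE 0.13, adjusted p = 1.15e-08). HK2 differed by -1.88 (SE 0.16, adjusted p = 1.44e-07) and MIF by -1.76 (SE 0.08, adjusted p = 2.77e-10). The 2 members that were higher in B11 were PFKFB3 (2.30, SE 0.32, adjusted p = 3.29e-05) and SLC16A3 (0.30, SE 0.08, adjusted p = 0.00627). PFKFB3 stood at 46.9, 27.4 and 60.8 FPKM in B11, against 5.10, 11.2 and 8.39 FPKM in THP1. EGLN3 was listed at 0 in the B11 libraries, against 1.44, 0.953 and 1.85 FPKM in THP1. With every library scaled to the same sum (TPM) the median of all genes moved by -0.12 in this comparison, and 23 members were lower and 1 higher.

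At 1 ug/ml the lines were closer, with 9 members higher and 8 lower in B11 than in THP1, 47.2% beside 29.8% of all genes. With TPM scaling this split was 9 higher and 12 lower, and with B and C of the B11 plates at this dose left out 5 were higher and 1 lower. At 10 ug/ml 16 members were higher and 4 lower in B11, 55.6% beside 32.4% of all genes, with a median of 0.23. ALDOC had 136, 149 and 29.2 FPKM in B11, against 8.16, 9.40 and 7.88 FPKM in THP1 (3.17, SE 0.40, adjusted p = 2.35e-05, and 3.92 without library C of B11). P4HA2 had 26.5, 24.5 and 18.5 FPKM in B11, against 9.02, 6.43 and 5.43 FPKM in THP1 (1.61, SE 0.20, adjusted p = 2.45e-05). LDHA did not pass at 10 ug/ml (0.04, SE 0.13, adjusted p = 0.854). The 4 that were lower were EGLN1, PFKM, SLC16A1 and HK3, of which EGLN1 kept its call whichever single library was left out. Without library C of B11 at this dose 19 were higher and 2 lower, and HK3 and SLC16A1 were no longer called (adjusted p = 0.175 and 0.0735).

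EGLN1 was lower in B11 at every dose. Its levels were 19.6 ± 0.337, 16.1 ± 1.35 and 12.7 ± 3.18 FPKM in B11 at 0, 1 and 10 ug/ml, against 37.5 ± 3.06, 31.4 ± 1.17 and 30.3 ± 2.73 FPKM in THP1 (SD, n = 3 each). The differences were -0.90, -0.93 and -1.21 (SE 0.13 each), with adjusted p = 5.14e-05, 9.07e-05 and 5.88e-06. No B11 library reached the lowest THP1 library at any dose.

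The response to doxycycline itself differed between the lines. For 10 against 0 ug/ml, the change in B11 minus the change in THP1 was called above 0 for 28 members and below 0 for 1, 80.6% beside 29.8% of all genes (16% above and 13.8% below). The median was 1.16. The widest was that of ALDOC (4.02, SE 0.57, adjusted p = 7.57e-05), followed by ENO2 (3.09, SE 0.74, adjusted p = 0.00526), HK2 (2.64, SE 0.22, adjusted p = 3.97e-07) and P4HA1 (2.52, SE 0.18, adjusted p = 8.95e-08). Without library C of B11 at 10 ug/ml the value of ALDOC was 4.77 (adjusted p = 1.19e-11), that of ENO2 3.84 (adjusted p = 0.000102) and that of BNIP3, 2.35 with it (SE 0.42, adjusted p = 0.000618), 2.88 (adjusted p = 3.35e-08). EGLN3, one of the 28, had reached 1 FPKM in THP1 libraries alone, and its value of 1.04 (SE 0.36, adjusted p = 0.0432) came from a change of -0.96 in THP1 and 0.08 in B11, where it was listed at 0 without doxycycline and could not fall. PFKFB3 was the member below 0 (-1.62, SE 0.46, adjusted p = 0.0148). For 1 against 0 ug/ml, 21 members were above 0 and 1, KDM3A, below, 61.1% beside 25.9% of all genes. For 10 against 1 ug/ml, 6 were above and 1, VEGFA, below, 19.4% beside 4.64% of all genes. Without library C of B11 at 10 ug/ml 11 were above and none below, and no member was called when B and C of the B11 plates at 1 ug/ml were left out.

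Summed over the 16 glycolytic enzymes and both lactate dehydrogenases, the level in B11 was 6323 ± 286, 10665 ± 176 and 11185 ± 1150 FPKM at 0, 1 and 10 ug/ml (SD, n = 3 each). In THP1 the sums were 11374 ± 438, 11074 ± 277 and 9130 ± 713 FPKM. At 0 ug/ml the highest B11 library, at 6653 FPKM, lay below the lowest THP1 library, at 10869 FPKM. At 10 ug/ml the order of the lines was turned round, with 9985 to 12276 FPKM in B11, against 8339 to 9724 FPKM in THP1.

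**Figure D4:**
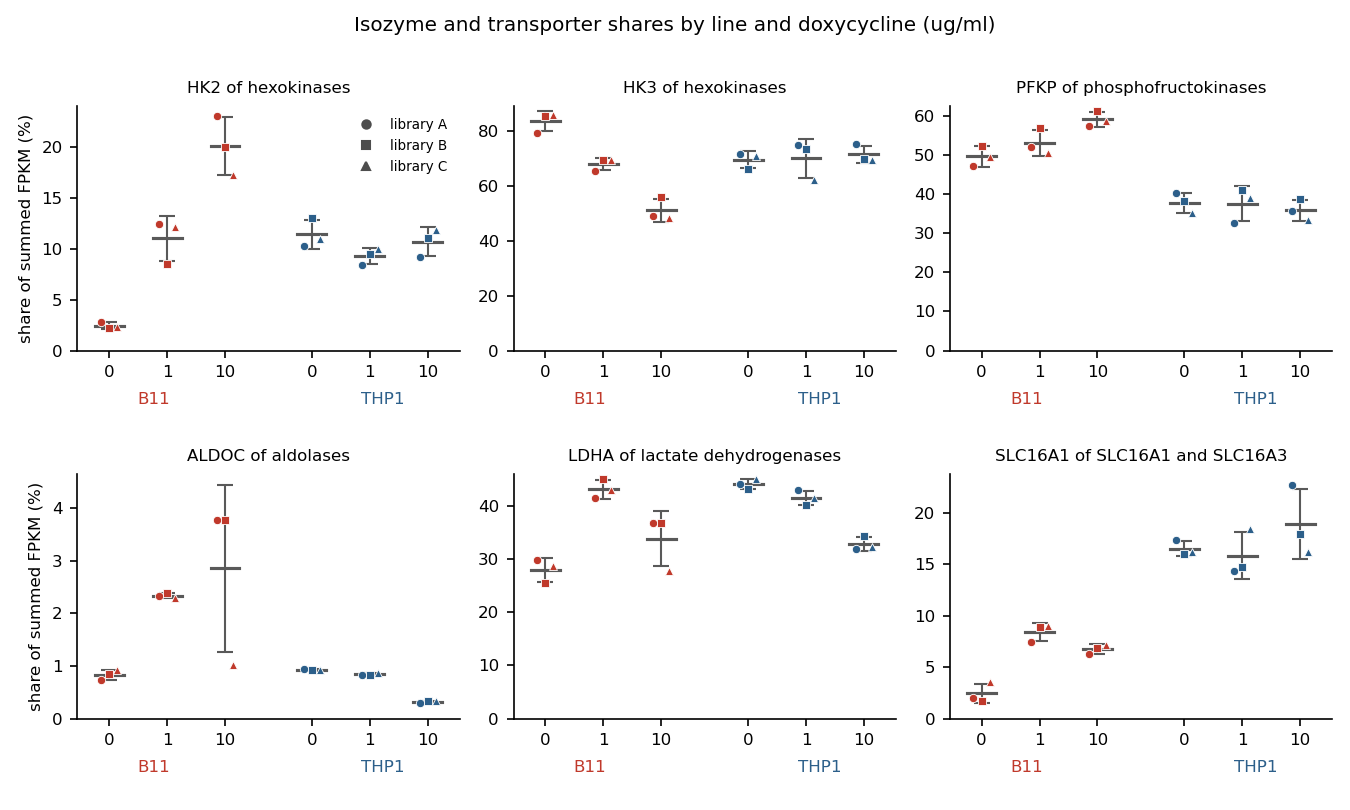
Share of an isozyme or transporter in the summed FPKM of its family (percent, axes from 0) in each library at 0, 1 and 10 ug/ml doxycycline, with B11 in red at the left and THP1 in blue at the right, and bars for the mean and SD of 3 libraries. The HK2 share in B11 was 2.44% at 0 ug/ml and 20.1% at 10 ug/ml, and the SLC16A1 share in B11 stayed below that in THP1 at every dose.

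Makeup and level did not always follow each other. The PFKP share of the phosphofructokinases was higher in B11 than in THP1 at every dose, at 49.7% ± 2.58, 53.1% ± 3.38 and 59.2% ± 1.85 in B11, against 37.9% ± 2.55, 37.6% ± 4.41 and 35.9% ± 2.72 in THP1. The SLC16A1 share of the 2 transporters was 2.43% ± 0.954, 8.43% ± 0.877 and 6.74% ± 0.458 in B11, against 16.5% ± 0.732, 15.8% ± 2.29 and 18.9% ± 3.39 in THP1. The libraries of the lines did not overlap in either share at any dose. The LDHA share in THP1 was 44.1% ± 0.940, 41.5% ± 1.37 and 32.9% ± 1.30 at 0, 1 and 10 ug/ml. At 10 ug/ml the 3 THP1 libraries were at 32.0%, 34.4% and 32.2%. In B11, libraries A and B lay above all of them, at 36.8% each, and library C lay below, at 27.9%.

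Other genes of the same pathways are given for B11 at 10 against 0 ug/ml. Of 31 genes of the pentose phosphate route, glycogen metabolism and the entry of pyruvate into mitochondria, 17 were higher and 4 lower, 67.7% beside 42.8% of all genes. PCK2, the mitochondrial phosphoenolpyruvate carboxykinase, had 121, 139 and 134 FPKM at 10 ug/ml, against 13.7, 36.7 and 19.0 FPKM at 0 ug/ml (2.56, SE 0.23, adjusted p = 4.3e-07). PDHA1 and DLAT, subunits of the pyruvate dehydrogenase complex that the PDK kinases inhibit, changed by 0.88 (SE 0.08, adjusted p = 4.31e-07) and 0.96 (SE 0.10, adjusted p = 2.24e-06). RPE, an epimerase of the pentose phosphate route, changed by 1.02 (SE 0.11, adjusted p = 3.4e-06). The 4 that were lower were PDK2, another kinase of pyruvate dehydrogenase (-0.96, SE 0.14, adjusted p = 6.15e-05), PDP1, the phosphatase that reverses those kinases (-0.77, SE 0.24, adjusted p = 0.0182), the ADP-dependent glucokinase ADPGK (-0.70, SE 0.08, adjusted p = 4.5e-06) and the lactonase PGLS (-0.44, SE 0.08, adjusted p = 0.000462).

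Of 26 other HIF components and targets tested, out of 31 listed, 11 were higher and 5 lower, 61.5% beside 42.8% of all genes. SLC2A1, the glucose transporter GLUT1, had 151, 149 and 118 FPKM at 10 ug/ml, against 55.6, 49.5 and 57.5 FPKM at 0 ug/ml (1.34, SE 0.09, adjusted p = 9.17e-09). DDIT4, a stress-induced inhibitor of mTORC1, changed by 2.41 (SE 0.15, adjusted p = 5.82e-09) and the transcription factor gene MAFF by 2.20 (SE 0.17, adjusted p = 8.32e-08). EPAS1, which encodes HIF-2 alpha, had 4.27, 1.86 and 3.17 FPKM at 10 ug/ml, against 32.0, 34 and 22.6 FPKM at 0 ug/ml (-2.92, SE 0.30, adjusted p = 1.59e-06). The others that were lower were KDM4C (-0.85), EGLN2 (-0.71), ARNT (-0.60) and VHL (-0.27). HIF1A and EPAS1 thus changed in opposite directions in B11. In THP1 at 10 against 0 ug/ml, 2 genes of the first list (PGM1 and GBE1) and 1 of the second (DDIT4) were lower and none was higher, 6.45% and 3.85% beside 1.02% of all genes.

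**Figure D5:**
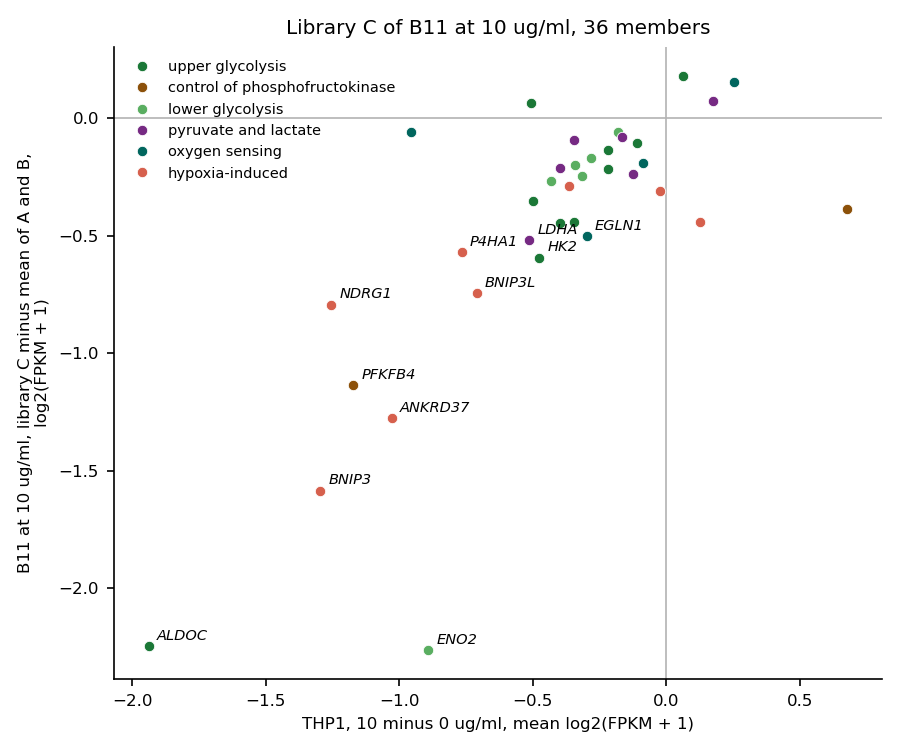
For each of the 36 members tested, library C of B11 at 10 ug/ml minus the mean of libraries A and B (vertical axis) against the mean change of THP1 at 10 against 0 ug/ml (horizontal axis), both in log2(FPKM + 1) units, coloured by role and named where library C was lower by more than 0.5. ALDOC, BNIP3, ANKRD37, PFKFB4 and NDRG1 are low on both axes.

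Library C of B11 at 10 ug/ml was set beside the THP1 response, member by member. Across the 36 members, the deviation of library C from the mean of A and B and the change of THP1 at 10 against 0 ug/ml had a Pearson r of 0.748 and a Spearman rho of 0.644. Across all 17555 genes tested the values were 0.0661 and 0.0762. These are descriptions across genes, which are not independent replicates, and the 2 quantities share no library. The estimated depth of library C lay within the range of the other libraries.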

How the data were processed

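RNA was sequenced from 18 plates, 3 of each line and dose. The submitters aligned reads to GRCh38 with HISAT2 and normalised with Cuffnorm, per the submitters' processing notes. For their versions, the annotation, the scaling option and strandedness, the sources used here give nothing. The deposited values were taken as FPKM (1 table of 60658 Ensembl IDs), and sum to 1.01 to 1.20 M per library. Names came from GENCODE 29, which named 57047 IDs. The labels give no batch. Depth was estimated from the smallest steps of 1072 low genes, at 12.2 to 17.6 M fragments per library. The members and lists were chosen with earlier results of these data known.

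The 17555 genes that reached 1 FPKM in 3 or more libraries were tested with limma 3.58.1 in R 4.3.3 on log2(FPKM + 1), with 6 group means, an intensity trend and 12 residual degrees of freedom. The p-values were adjusted by Benjamini-Hochberg over all genes tested in each of 12 comparisons, and an adjusted p under 0.05 was called. SE is the moderated standard error. All 38 members were eligible to be named, by role. Tables and figures were made in Python 3.11.15 with numpy 2.4.6, pandas 2.3.3 and matplotlib 3.10.9. Alternatives were another pseudocount (0.1), other filters, 2 other scalings (TPM and the median of ratios), robust variances, only the groups compared, the letter as a replicate block, each library left out and, chosen after seeing the data, both B and C of the B11 plates at 1 ug/ml left out. Over all genes tested, libraries with the same letter did not deviate together (r of -0.07 to 0.09), and the main fit did not pair plates by letter. These r values cannot show how the plates were laid out.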

Additional observations from a re-analysis of the deposited data

Results flagged for a closer look

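The difference between the lines in their response to doxycycline (change in B11 minus change in THP1, tested as an interaction in limma) drew attention in 29 members for 10 against 0 ug/ml. In upper glycolysis it was 1.17 for HK1, 2.64 for HK2, 1.63 for GPI, 0.48 for PFKL, 1.09 for PFKP, 1.04 for ALDOA, 4.02 for ALDOC and 1.01 for TPI1, all on the log2(FPKM + 1) scale. In lower glycolysis it was 1.16 for GAPDH, 1.14 for PGK1, 0.92 for PGAM1, 1.23 for ENO1, 3.09 for ENO2 and 1.19 for PKM. Of the genes that set fructose bisphosphate it was 1.45 for PFKFB4 and -1.62 for PFKFB3. For pyruvate and lactate it was 2.01 for LDHA, 0.93 for LDHB, 1.48 for PDK1, 1.16 for PDK3, 1.88 for SLC16A1 and 0.67 for SLC16A3. For the hypoxia-induced genes it was 2.35 for BNIP3, 1.88 for ANKRD37, 2.52 for P4HA1, 1.22 for P4HA2, 1.63 for NDRG1 and 1.81 for MIF. EGLN3 had a fitted value of 1.04, with a change of 0.08 in B11, listed at 0 without doxycycline, and of -0.96 in THP1, and its call was lost without any 1 of 12 libraries (adjusted p = 0.0513 to 0.102).

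For 1 against 0 ug/ml the response differed between the lines in 22 members, among them VEGFA (1.42) and KDM3A (-0.89). The KDM3A call was lost without library A of B11 or of THP1 at 0 ug/ml or library B of either line at 1 ug/ml (adjusted p = 0.0564 to 0.0634). For 10 against 1 ug/ml it differed in 7 members, among them VEGFA (-1.44), whose call was lost without library C of B11 at 1 or 10 ug/ml, library A or B of THP1 at 1 ug/ml or library B of THP1 at 10 ug/ml (adjusted p = 0.0503 to 0.0592). Groups of 3 libraries are too small for a test of single outlying values, so library C of B11 at 10 ug/ml is given by its values alone.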

How the results depend on the processing

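Of 432 pairs of a member and a comparison, 311 kept their side of the threshold under each of the 27 alternatives in which they were tested. No call reversed its direction. Direction was not compared for pairs called in neither fit, and some of those changed sign. BNIP3 in B11 at 10 against 1 ug/ml was -0.12 in the main fit and 0.40 without library C at 10 ug/ml. The number of members called moved by over 1.5 times as follows. THP1 at 10 against 1 ug/ml had 1 call, and 0 with a pseudocount of 0.1, without a filter, with robust variances, with the replicate block and without both B and C of the B11 plates at 1 ug/ml. B11 at 10 against 1 ug/ml had 7, and 4 without a filter, 3 with only the groups compared and 0 without those 2 libraries. THP1 at 10 against 0 ug/ml had 8, and 3 without a filter, 4 with robust variances, 2 with only the groups compared, 5 with the replicate block and 3 without those 2 libraries. The response for 10 against 1 ug/ml had 7, and 3 without a filter, 4 with only the groups compared and 0 without those 2 libraries. B11 against THP1 at 1 ug/ml had 17, and 6 without those 2 libraries, where the lone library left is assumed to vary like the other groups. The cause was not tested.

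With each library left out in turn, the count was 26 to 30 for B11 at 10 against 0 ug/ml, 21 to 27 at 1 against 0 and 3 to 9 at 10 against 1. In THP1 it was 0 to 14, 0 to 0 and 0 to 6. For B11 against THP1 it was 22 to 27 at 0 ug/ml, 12 to 19 at 1 ug/ml and 16 to 21 at 10 ug/ml. For the response it was 28 to 30 for 10 against 0 ug/ml, 21 to 24 for 1 against 0 and 2 to 11 for 10 against 1. With the replicate block B11 at 10 against 0 ug/ml had 29 calls, as without it. Behind the low members EGLN3 and ADM lay an estimated 0 to 265 and 0 to 42.4 fragments per library.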
